A study of Mus musculus with 27 samples.

Results

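The St6gal and St6galnac genes encode the sialyltransferases that attach sialic acid through an alpha2,6 linkage. All mouse probe sets whose gene symbol in the platform annotation starts with St6gal were taken, which gave 13 of the 702 mouse probe sets and 7 of the 573 mouse genes measured. St6gal1 and St6galnac4 had 3 probe sets each, St6galnac1 and St6galnac6 had 2 each, and St6galnac2, St6galnac3 and St6galnac5 had 1 each. A probe set is a group of short probes read together as a single value, and a gene with several of them was measured more than once on the same array.

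The series profiled total RNA of 4 lymphoid or blood-forming tissues (bone marrow, lymph node, spleen and thymus) and of brain, kidney, liver, lung and testis from wild-type male mice of the inbred strain C57BL/6, aged 6 to 8 weeks. Each tissue was hybridised to 3 custom glycogene arrays made by Affymetrix, 27 arrays in all, and the bone marrow came from femurs. Whether these are separate mice is not stated, so the p-values speak only of the spread among the arrays, whose number limits the precision. Values are deposited intensities on a linear scale, differences are log2 differences from limma, and a difference counts as called where its adjusted p is under 0.05 and its size at least 1. A fold is 2 to the power of the log2 difference, and a range is the highest minus the lowest tissue mean on the log2 scale. The 839 human probe sets on the same arrays give a rough view of non-specific signal. Their intensities had a median of 205.2 and 5th and 95th percentiles of 58.3 and 590.1, and their ranges over tissues had a median of 0.48 and a 95th percentile of 1.19.

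Sialyltransferases move sialic acid from its activated form, CMP-sialic acid, onto the ends of glycans in the Golgi. ST6GAL1 acts on galactose at the ends of N-glycans and makes the structure that the B cell lectin CD22 binds, and the enzyme is also made by liver, which releases a soluble form into blood. The St6galnac enzymes instead act on N-acetylgalactosamine: ST6GALNAC1 and ST6GALNAC2 on mucin-type O-glycans, and ST6GALNAC3 to ST6GALNAC6 on sialylated O-glycans or on gangliosides, the sialylated glycolipids abundant in brain. Within RefSeq's gene order (assembly GRCm38.p6), St6gal1 lies on chromosome 16, and the others lie in 3 pairs with 0 protein-coding genes between partners: St6galnac1 and St6galnac2 on chromosome 11, St6galnac3 and St6galnac5 on chromosome 3, and St6galnac4 and St6galnac6 on chromosome 2.

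Over the family, 5 of 13 probe sets from 3 genes (St6gal1, St6galnac2 and St6galnac4) were called by the F test, which asks whether any of the 9 tissues differ, against 52.3% of all mouse probe sets. By adjusted p alone 11 of 13 passed, against 86.3%. The median range over tissues was 0.87 for the members and 1.07 for all mouse probe sets. Of the 117 comparisons of a member with a tissue against the other 8, 10 were called, or 8.55%, against 12.6% over all mouse probe sets, and all 10 belonged to St6galnac2 or St6gal1. Over the 36 tissue pairs, 58 of 468 member comparisons were called, against 17% of all, and 21 of them were of St6galnac2. By adjusted p alone 211 of the 468 passed, against 42.5%, and this rule is used below for neighbours in the order of levels. By tissue, lymph node had 2 members called higher (11.8% of all probe sets), spleen 1 (9.97%), kidney 1 (6.55%) and testis 1 (2.99%). Called lower were 1 each in bone marrow (4.13%), brain (10.7%), liver (9.97%), thymus (1.42%) and testis (13.4%), and lung had 0 in either direction (9.54% higher, 1.28% lower).

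**Figure D1:**
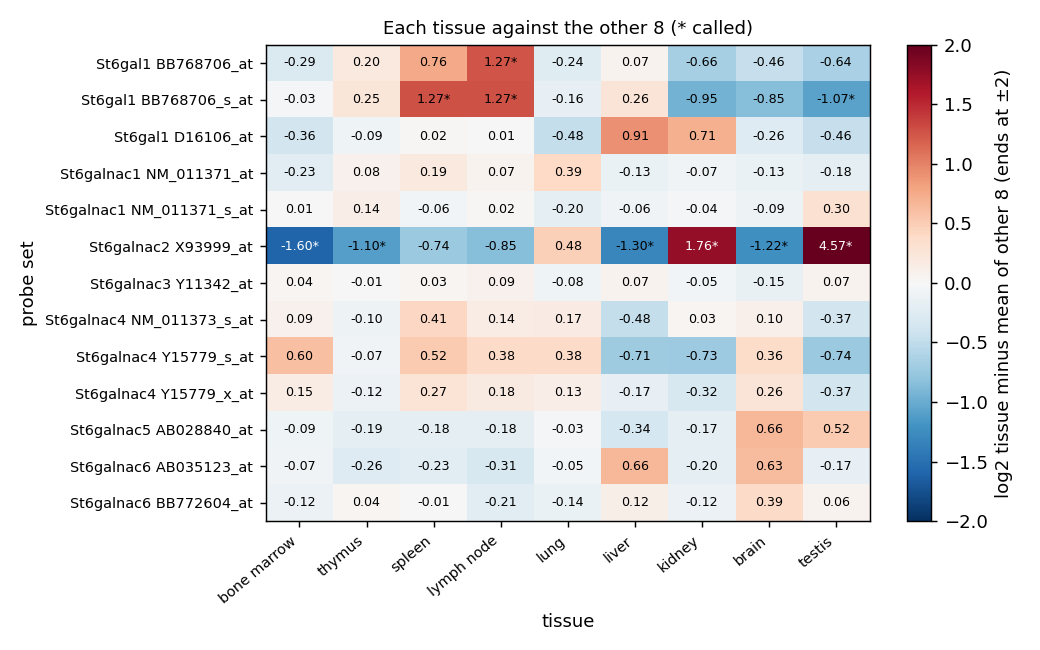
Log2 difference of each tissue from the equal-weight mean of the other 8, for the 13 St6gal and St6galnac probe sets, with the value printed in each cell, colour ending at ±2 and * marking a called difference. Cells with * stand only in the rows of St6galnac2 (6 cells) and of 2 of the 3 St6gal1 probe sets (4 cells).

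St6gal1 is known to be transcribed from several promoters whose use differs between tissues. Its probe sets gave different tissue patterns here, and whether promoter use has a part in that was not tested. RefSeq's promoter table (GRCm38.p6, plus strand) held 3 starts for St6gal1. They are shown 5′ to 3′ as background. Where the probe sets lie on the transcripts was not analysed, so none of them can be tied to a start. Each window holds 300 bases, of which 250 lie before the start and 50 after it, and capitals mark matches to CCAAT (the CCAAT box) or GGGCGG (the GC box) on either strand:
St6gal1 start 1, chr16:23224490-23224789: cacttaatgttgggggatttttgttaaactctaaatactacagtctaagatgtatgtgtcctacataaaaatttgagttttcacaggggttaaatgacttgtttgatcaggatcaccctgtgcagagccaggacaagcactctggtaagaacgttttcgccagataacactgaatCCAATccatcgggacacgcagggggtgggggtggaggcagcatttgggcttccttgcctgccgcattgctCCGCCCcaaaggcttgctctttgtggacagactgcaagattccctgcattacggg
St6gal1 start 2, chr16:23225771-23226070: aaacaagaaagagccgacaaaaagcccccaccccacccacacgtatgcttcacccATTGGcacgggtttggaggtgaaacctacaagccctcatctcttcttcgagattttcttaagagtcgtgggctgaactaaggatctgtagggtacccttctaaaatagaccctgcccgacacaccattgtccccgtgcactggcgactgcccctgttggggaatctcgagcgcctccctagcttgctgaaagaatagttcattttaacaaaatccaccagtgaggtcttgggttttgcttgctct
St6gal1 start 3, chr16:23290220-23290519: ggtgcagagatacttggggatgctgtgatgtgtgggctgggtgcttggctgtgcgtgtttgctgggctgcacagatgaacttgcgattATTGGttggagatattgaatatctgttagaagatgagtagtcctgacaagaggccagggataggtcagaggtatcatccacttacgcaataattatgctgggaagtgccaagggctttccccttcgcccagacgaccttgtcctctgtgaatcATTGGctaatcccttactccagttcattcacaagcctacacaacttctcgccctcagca

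The first and second starts lie 1281 bases apart, and the third lies 64449 bases beyond the second. CCAAT, searched on both strands, was in 3 of the 3 windows and in 37.4% of all 32851 promoter windows of the table. GGGCGG was in the window of start 1 and in 35.7% of all windows. TATAAA, the TATA box, was in 0 of the 3 windows and in 13.6% of all. The octamer ATGCAAAT was in 0 of the 3 and in 1.74% of all. These letters describe the windows, and the arrays did not measure which start was used.

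St6gal1 was highest in lymph node and spleen by a pair of probe sets and highest in liver and kidney by the third. By BB768706_at, lymph node gave intensities of 522, 499.9 and 519 in its 3 arrays, spleen 385, 416 and 335, and thymus 284, 266 and 249.8. Liver followed with 254, 246 and 238, lung with 198, 209 and 203 and bone marrow with 220.0, 197 and 176. Brain gave 161, 197 and 176, testis 149, 142 and 187 and kidney 162, 168 and 143. The 3 lymph node arrays lay above the other 24 arrays, as for 4.56% of all mouse probe sets, and the arrays of bone marrow, lung, brain, testis and kidney overlapped in a chain. The range over tissues was 1.71, or 3.27-fold (limma F test, adjusted p = 2.36e-12). All arrays of kidney, testis and brain were under the human median of 205.2, so this fold is a ratio of signals. Lymph node exceeded the equal-weight mean of the other 8 tissues by 1.27 ± 0.08 (SE), or 2.40-fold (limma, adjusted p = 5.08e-12). The spleen excess of 0.76 was under the size threshold (limma, adjusted p = 4.28e-08). In the order of levels, lymph node over spleen, spleen over thymus and liver over lung were the 3 of 8 neighbouring steps with an adjusted p under 0.05, so thymus did not differ from liver beyond the spread, and no step from lung down to kidney passed.

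BB768706_s_at, whose suffix marks probes that match more than a single transcript, placed spleen level with lymph node. Its intensities were 855, 819 and 997 in lymph node and 867, 859.9 and 932 in spleen. Liver gave 537, 466 and 431, thymus 527, 440.3 and 450.4, bone marrow 443, 373 and 382 and lung 376, 402 and 324. The lowest tissues were brain with 266, 192 and 272, kidney with 258, 228 and 197 and testis with 177, 215 and 242. The 6 arrays of lymph node and spleen lay above all other arrays and overlapped each other. Over tissues the values ranged by 2.08, or 4.23-fold (limma F test, adjusted p = 1.23e-12). Lymph node was higher by 1.27 ± 0.11 (SE; limma, adjusted p = 4.48e-10) and spleen by 1.27 ± 0.11 (SE; limma, adjusted p = 6.20e-10) against the other 8 tissues. Testis was lower by a log2 difference of -1.07, or 2.10-fold (limma, adjusted p = 8.74e-09). Without testis replicate 1 that log2 difference was -0.95, under the size threshold (limma, adjusted p = 8.27e-07). The neighbouring steps from spleen to liver (0.90; limma, adjusted p = 1.08e-05) and from lung to brain (0.61; limma, adjusted p = 0.00111) passed, and the other 6 did not.

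D16106_at, the third St6gal1 probe set, had its highest values outside the lymphoid tissues. Liver gave 595, 579.6 and 648 and kidney 495, 529.9 and 587. Spleen gave 368, 328 and 357, lymph node 339.8, 335 and 371, thymus 299, 344 and 344.5 and brain 261, 347 and 285. Bone marrow gave 297, 257 and 279.7, testis 287, 262 and 238 and lung 240.1, 265 and 269. The 6 arrays of liver and kidney lay above all others and overlapped each other, and the other 7 tissues overlapped in a chain. Over the 9 tissues the range was 1.23, or 2.35-fold (limma F test, adjusted p = 2.45e-10), which was called. Against the other 8 tissues, liver differed by 0.91 ± 0.08 (SE; limma, adjusted p = 1.07e-09) and kidney by 0.71 ± 0.08 (SE; limma, adjusted p = 7.23e-08), both under the size threshold. Kidney over spleen (0.61; limma, adjusted p = 3.28e-05) was the 1 neighbouring step of 8 that passed.

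**Figure D2:**
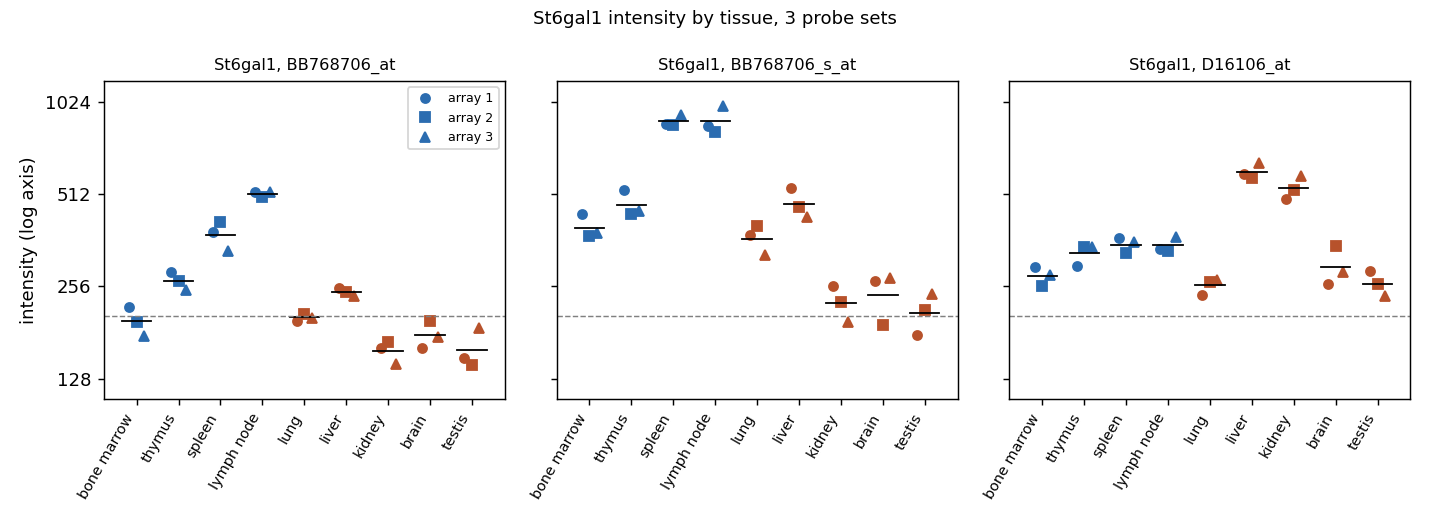
Intensity of the 3 St6gal1 probe sets (log axis, same scale in each panel) in 9 tissues, with 1 point per array, black bars at the geometric mean of the 3 arrays, lymphoid and blood-forming tissues in blue, other tissues in brown, and a dashed line at 205.2, the median of the human probe sets. Lymph node reaches 522 by BB768706_at and 997 by BB768706_s_at, whereas liver (up to 648) and kidney (up to 587) lead by D16106_at.

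The probe sets were compared within each array, which cancels whatever scales a whole array. The log2 value of D16106_at minus that of BB768706_s_at averaged 1.25 ± 0.32 (SD, n = 3) in kidney and 0.35 ± 0.22 in liver. It averaged -1.35 ± 0.07 in lymph node and -1.34 ± 0.09 in spleen, and the other means lay from -0.52 in bone marrow to 0.32 in testis. The difference ranged over tissues by 2.59, or 6.04-fold (limma F test over the 9 tissues on the difference, adjusted p = 1.09e-09 over the 136 same-gene pairs of probe sets). For BB768706_at against D16106_at it ranged by 2.33 (limma, adjusted p = 1.71e-10). The 2 BB768706 probe sets differed from each other by a range of 0.83, under the size threshold (limma, adjusted p = 0.000765), with the largest share of BB768706_s_at in spleen. As a description over 9 tissue means, which share arrays and scaling, Pearson's r was 0.96 between the 2 BB768706 probe sets, 0.09 between BB768706_at and D16106_at, and 0.11 between BB768706_s_at and D16106_at. Of the 8 pairs among the members 3 were called, against 36.8% of all 136 pairs, a share near the background.

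**Figure D3:**
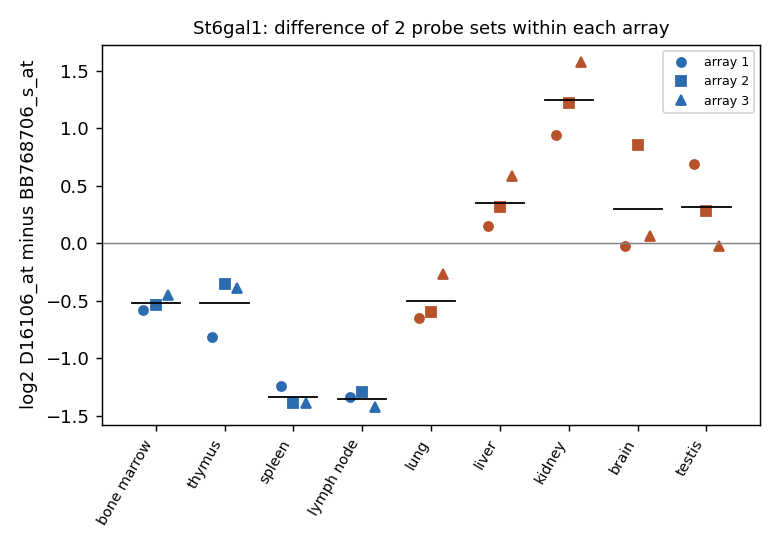
Within-array log2 difference between the St6gal1 probe sets D16106_at and BB768706_s_at in 9 tissues, 1 point per array, with black bars at the mean of 3 arrays, a grey line at 0, lymphoid and blood-forming tissues in blue and other tissues in brown. Kidney lies highest at a mean of 1.25, and lymph node and spleen lie lowest at -1.35 and -1.34.

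The bone marrow, lymph node, spleen and thymus were also set together against brain, kidney, liver, lung and testis. By BB768706_s_at, St6gal1 was higher in the lymphoid and blood-forming group by 1.10 ± 0.07 (SE), or 2.15-fold (limma, adjusted p = 5.80e-13). The groups overlapped there, since liver reached 537 and bone marrow went down to 373, and with quantile normalization the difference of 0.94 was under the size threshold. By BB768706_at the difference was 0.77 (limma, adjusted p = 3.67e-12) and by D16106_at it was -0.17 (limma, adjusted p = 0.00530), neither of them called. In this contrast 1 of 13 member probe sets was called higher, against 11.5% of all mouse probe sets, and 1 was called lower, against 3.13%. The probe set called lower was that of St6galnac2.

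Markers of several cell types were high in lymph node and spleen, the leading tissues of the BB768706 probe sets. Of 10 listed B cell markers, 4 were measured (Cd22, Cd72, Cd74 and Fcer2a). Their summed intensity was 14772 to 16997 in lymph node and 15669 to 17511 in spleen, 8623 to 9696 in thymus, and 6604 to 8148 in bone marrow. It was 6605 to 8781 in lung, 4612 to 5222 in brain, 3570.0 to 4157 in testis, 2772 to 5639.6 in kidney and 2591 to 3058 in liver. The B cell sums of liver were below those of lung and brain, where Cd22 alone had means of 4873 and 4318. The sums hide differences between the markers: Cd22 had means from 2086 to 5423 over all tissues, and thymus had Cd72 at 74.4 ± 6.22 and Fcer2a at 265 ± 12.4 (SD, n = 3), as low as in non-lymphoid tissues. The Cd22 probe set, NM_009845_x_at, also has a suffix that marks probes that can cross-hybridise. In lymph node and spleen 3 of the 4 markers were called higher. T cell markers, 3 of 9 measured, summed to 3368 to 3799 in lymph node and 2393 to 2861 in spleen, under the 5066 to 7881 of thymus and above the other 6 tissues (779 to 1227). Macrophage markers, 4 of 8 measured, summed to 2086 to 2396 in lymph node, 2027 to 2061 in spleen and 1492 to 1753 in liver, against 635 to 1407 in the other 6 tissues. Endothelial markers, 4 of 6 measured, summed to 5103 to 5860.0 in lymph node and 5038 to 5598 in lung, against 799 to 1205 elsewhere. The genes behind these sums differed: Glycam1 had means of 4306 in lymph node and 284 in lung, and Pecam1 of 584 and 1859. Hepatocyte markers, 5 of 7 measured, summed to 17653 to 23613 in liver and to at most 2656 in any other array, and those of kidney tubule had no measured gene. None of the measured markers was at 0. In whole tissue, fewer cells of a type and less RNA per cell cannot be told apart, and the part of cell composition in these differences was not tested.

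The genes with the tissue profiles most like each St6gal1 probe set were found by Pearson's r over the 9 tissue means, among 286 other genes called by the F test, and are a description. For BB768706_at they were Cxcl9, an interferon-induced chemokine (r = 0.95), Ccr7, the receptor that guides lymphocytes and dendritic cells into lymph nodes (r = 0.94), and Ccr6, a chemokine receptor of B cells and other leukocytes (r = 0.93). For BB768706_s_at they were Itgax, the integrin CD11c of dendritic cells (r = 0.93), B4galnt1, a ganglioside synthase (r = 0.91), and Ccr7 (r = 0.90). For D16106_at they were Khk, the fructose-phosphorylating ketohexokinase (r = 0.93), Ugt2b5, a glucuronosyltransferase (r = 0.90), and Papss2, which makes the sulfate donor PAPS (r = 0.88). The 3 genes like D16106_at all peaked in liver or kidney, which follows from choosing them by that profile.

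St6galnac2 was the member with the widest tissue range, led by testis and then kidney and lung. Its probe set X93999_at gave 1910.0, 4352 and 4905 in testis, 616, 673 and 555 in kidney and 293, 267 and 275 in lung. Spleen gave 129.7, 133 and 129.5, lymph node 141, 119 and 111 and thymus 108, 104 and 104. Brain gave 102, 95.8 and 94.99, liver 81.4, 97.1 and 100.1 and bone marrow 71.9, 70.7 and 90.3. The 3 testis arrays lay above all others, as for 3.28% of all mouse probe sets. The 3 kidney arrays lay above all but testis, and the 3 lung arrays above the remaining 6 tissues. Among those 6, spleen and lymph node overlapped, thymus lay just below them, and brain, liver and bone marrow lay below thymus and overlapped in a chain. The range of 5.48 over tissues, or 44.6-fold, was the 11th largest of the 702 probe sets (limma F test, adjusted p = 2.48e-16). Testis exceeded the other 8 tissues by 4.57 ± 0.16 (SE), or 23.7-fold (limma, adjusted p = 1.60e-16), and kidney by 1.76 ± 0.16 (SE), or 3.40-fold (limma, adjusted p = 1.49e-09).

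The steps from testis to kidney (2.49, or 5.62-fold), kidney to lung (1.14, or 2.20-fold) and lung to spleen (1.09, or 2.13-fold) passed the pairwise test, and the 5 steps below spleen did not. The testis arrays were themselves spread, with replicate 1 lower than the other 2, and without it the range was 5.90, or 59.9-fold. St6galnac2 was called lower than the other 8 tissues in bone marrow (-1.60), liver (-1.30), brain (-1.22) and thymus (-1.10). The reference mean of these values includes testis and kidney, and with the median of those 8 as the reference they were -0.71, -0.45, -0.38 and -0.27, a description with no test. Kidney, at 1.76 against the mean, was 2.43 against that median. The lymphoid and blood-forming group was lower by a log2 difference of -1.71 ± 0.10 (SE; limma, adjusted p = 1.83e-13). Testis, kidney and lung lay above every array of that group, and brain and liver overlapped it. All 18 arrays of the tissues below lung were under the human probe sets' median of 205.2, so that the folds are ratios of signals rather than of transcripts.

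**Figure D4:**
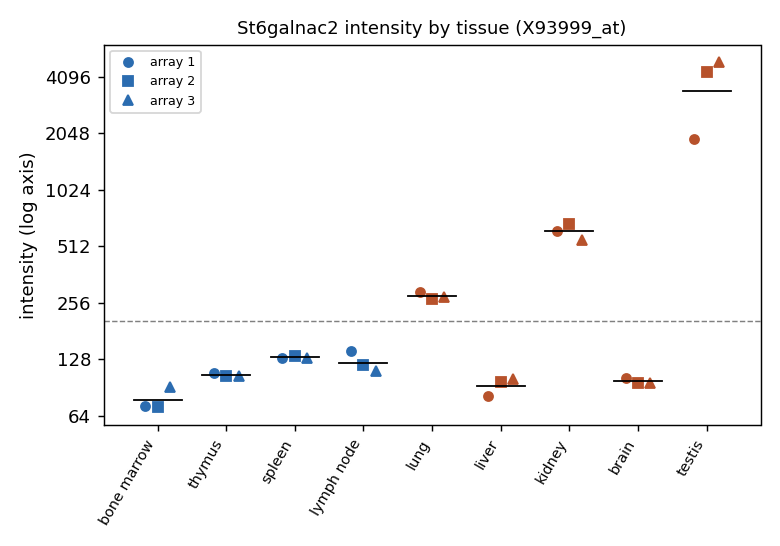
Intensity of St6galnac2 (X93999_at, log axis) in 9 tissues, 1 point per array, with black bars at the geometric mean of 3 arrays, a dashed line at the human probe sets' median of 205.2, lymphoid and blood-forming tissues in blue and other tissues in brown. Testis (1910.0 to 4905), kidney (555 to 673) and lung (267 to 293) lie above the line and every array of the other 6 tissues below it.

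The genes most like St6galnac2 over the 9 tissue means were Galnt3, an enzyme that starts mucin-type O-glycans (r = 0.90), Mpi, the mannose phosphate isomerase (r = 0.86), and Galc, the lysosomal galactosylceramidase (r = 0.86). Galnt3 and Mpi peaked in testis and Galc in kidney. The list of testis germ cell and Leydig cell markers had no measured gene, so the testis label could not be checked against markers. Among the human probe sets, that of ST6GALNAC2 was also highest in testis, at 454 ± 17.7 (SD, n = 3) against 275 ± 12.9 in lung, its lowest tissue, with a range of 0.72.

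St6galnac1, the neighbour of St6galnac2 and the enzyme that makes the sialyl-Tn antigen, had probe sets of very different kinds. NM_011371_at read 6.14 to 35.7 over the 27 arrays, with 16 arrays under the floor of 16 used here, and its tissues did not pass the F test (limma, adjusted p = 0.612). NM_011371_s_at read from 344.5 in a lung array to 507 in a testis array. Testis gave 507, 459 and 480.3, thymus 474, 457 and 382 and lung 352, 369 and 344.5, so testis and thymus overlapped. Its range of 0.44 had a small adjusted p (limma F test, adjusted p = 0.00186) but was under the size threshold, and none of its 8 neighbouring steps passed. The within-array difference between the 2 probe sets did not pass (limma, range 0.94, adjusted p = 0.172), which does not show that they agree. Human ST6GALNAC1 was highest in testis, at 140.5 to 209 over its 3 arrays, with a range of 0.54 against the human median range of 0.48.

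St6galnac3, which acts on gangliosides and O-glycans, showed no tissue difference that passed. Y11342_at lay between 99.3 and 129 in all 27 arrays, with means from 103 ± 6.14 (SD, n = 3) in brain to 119 ± 7.06 in lymph node. The range was 0.21 (limma F test, adjusted p = 0.337), and 0 of its 36 tissue pairs had an adjusted p under 0.05. All of its arrays were under the median of the human probe sets.

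St6galnac4, which adds sialic acid to already sialylated O-glycans, had its lowest mean in testis or liver by each of its 3 probe sets, with differences in size and order between them. By Y15779_s_at, bone marrow gave 414, 380.4 and 464, spleen 422, 402 and 371 and lymph node 329, 348 and 425. Lung gave 369, 373 and 355, brain 366, 361 and 357 and thymus 285, 273 and 273. Liver gave 188, 184 and 187, kidney 190.1, 184 and 177 and testis 177, 175 and 196. The tissues fell into 3 levels that did not overlap: bone marrow, spleen, lung, lymph node and brain, then thymus, then liver, kidney and testis. The steps from brain to thymus (0.38; limma, adjusted p = 0.00135) and from thymus to liver (0.57; limma, adjusted p = 1.43e-05) were the 2 of 8 that passed. The range was 1.20, or 2.29-fold (limma F test, adjusted p = 7.29e-13), and was called, while no single tissue reached the size threshold against the other 8 (from -0.74 in testis to 0.60 in bone marrow). The lowest level was under the human probe sets' median.

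The other St6galnac4 probe sets had smaller ranges. By NM_011373_s_at, spleen was highest with 261, 262 and 273 and liver lowest with 149, 155 and 154, each outside the arrays of every other tissue (2.42% of all mouse probe sets for spleen above and 2.85% for liver below), and kidney with 216, 222 and 192 lay among the middle tissues. Its range was 0.80 (limma F test, adjusted p = 3.23e-07). Y15779_x_at, whose suffix marks probes that can cross-hybridise, ran from 318 ± 11.2 (SD, n = 3) in testis to 472 ± 23.4 in spleen, a range of 0.57 (limma F test, adjusted p = 4.83e-07). NM_011373_s_at and Y15779_s_at disagreed within arrays by a range of 1.13 between kidney and bone marrow (limma, adjusted p = 1.41e-07), which was called. Y15779_x_at differed from Y15779_s_at by a range of 0.88 (limma, adjusted p = 1.22e-07) and from NM_011373_s_at by 0.59 (limma, adjusted p = 0.00495), neither of them called. The genes most like Y15779_s_at, among 287, were St8sia4, a polysialyltransferase (r = 0.89), Cd22 (r = 0.85) and Cd44, a hyaluronan receptor (r = 0.83).

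St6galnac5, an enzyme of ganglioside sialylation known from brain, had its highest log2 mean in brain, with testis next, by its 1 probe set. AB028840_at gave 1164, 1169 and 1241 in brain, 759, 1974 and 863 in testis and 596 to 819.5 in the other 21 arrays. All brain arrays lay above the arrays of those 7 tissues, and testis replicate 2 stood alone above brain. Brain exceeded the other 8 tissues by 0.66 ± 0.15 (SE; limma, adjusted p = 0.000572) and testis by 0.52 (limma, adjusted p = 0.00468), both under the size threshold. Without testis replicate 2 the brain difference was 0.72 (limma, adjusted p = 1.97e-09) and the testis difference 0.09 (limma, adjusted p = 0.338). The range over tissues was 0.90 (limma F test, adjusted p = 0.00200), and without testis replicate 1 it was 1.03 and called, and testis then led, at 0.78 above the other 8 tissues against 0.63 for brain.

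St6galnac6, which acts on gangliosides, had its highest means in brain and liver. AB035123_at gave 248, 552 and 552 in brain, 394, 417 and 489.7 in liver and 216 to 315 in the other 21 arrays. Brain replicate 1 lay among the low tissues, the other 2 brain arrays above every other array, and the liver arrays above the low tissues. Its range was 0.87 (limma F test, adjusted p = 0.000984), with liver 0.66 and brain 0.63 above the other 8 tissues. Without brain replicate 1 the range was 1.22, or 2.33-fold, and the brain difference 1.01 (limma, adjusted p = 6.92e-08), and both were called. BB772604_at gave 1068, 1101 and 1022 in brain, 776, 1168 and 732 in testis and 840.1, 922 and 950.3 in liver, and its brain replicate 1 lay between the other 2. By BB772604_at liver was only 0.12 above the other 8 tissues (limma, adjusted p = 0.301), and 0 of its 8 neighbouring steps passed. That probe set's range was 0.53 (limma F test, adjusted p = 0.0124). Its testis replicate 2, at 1168, stood above every other array. Without that array the range was again 0.53 (limma F test, adjusted p = 0.000206). Brain was then 0.41 above the other 8 tissues (limma, adjusted p = 1.25e-05), under the size threshold, and the testis difference was -0.15 (limma, adjusted p = 0.127). The within-array difference between the 2 probe sets was not called (range 0.75, limma, adjusted p = 0.0472).

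**Figure D5:**
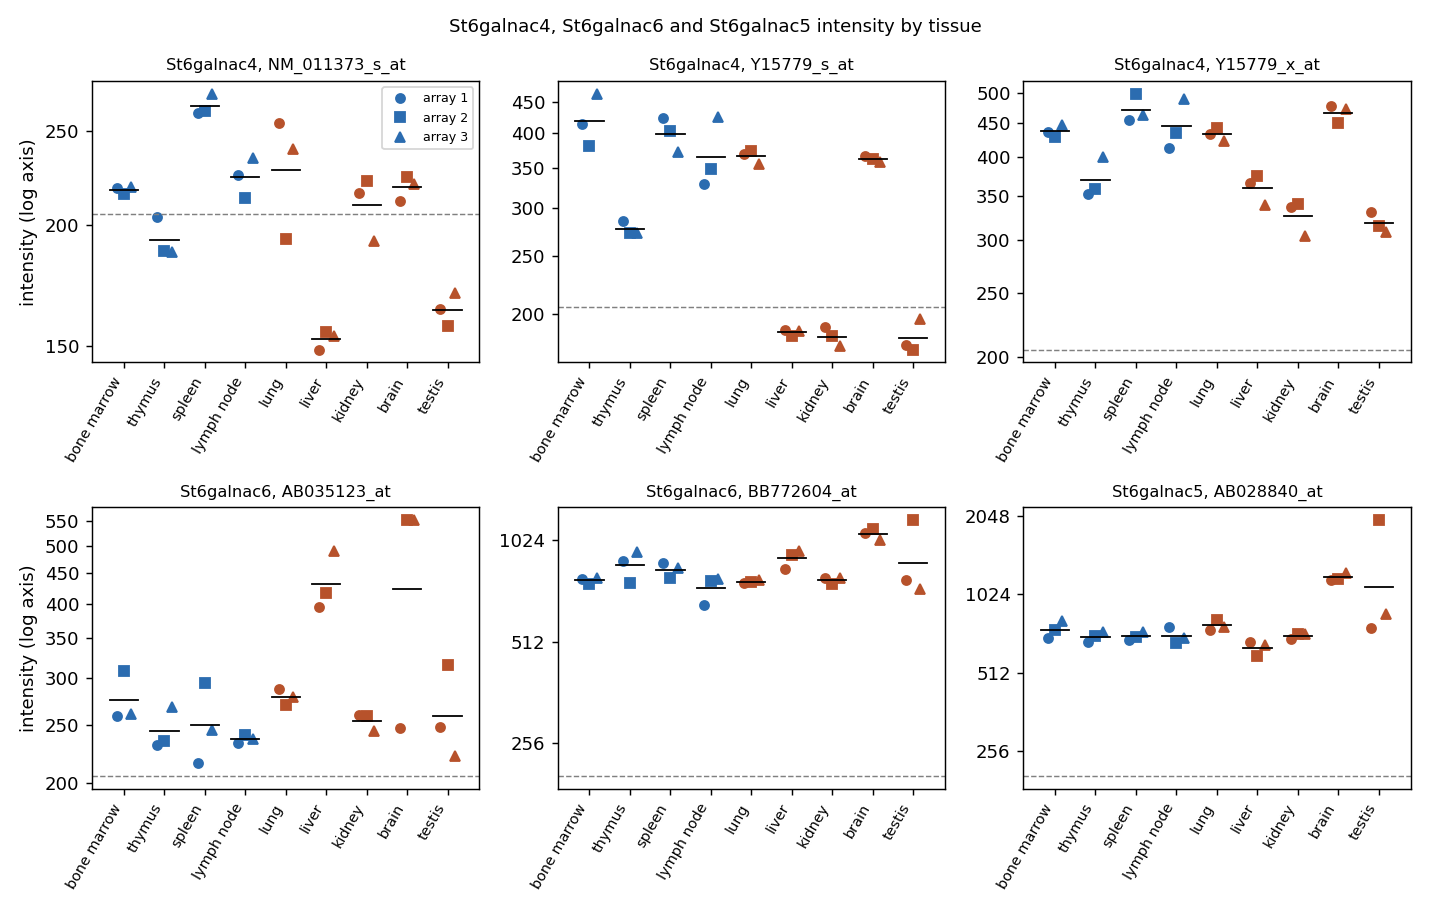
Intensity (log axis, with its own scale in each panel) of the 3 St6galnac4, 2 St6galnac6 and 1 St6galnac5 probe sets in 9 tissues, with 1 point per array, black bars at the geometric mean of 3 arrays, a dashed line at the human probe sets' median of 205.2, lymphoid and blood-forming tissues in blue and other tissues in brown. Y15779_s_at drops to 175 in testis from up to 464 in bone marrow. Single arrays stand apart in testis for St6galnac5 (1974) and for BB772604_at of St6galnac6 (1168), and in brain for AB035123_at of St6galnac6 (248).

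Other enzymes of the pathway were counted from lists, with the probe set of the highest mean intensity standing for each gene, and are read against the 52.3% called and the median range of 1.07 over all mouse probe sets. Of 12 other sialyltransferases, 11 were measured and 6 were called by the F test, with St8sia4 the widest (range 4.33, highest in bone marrow at 1425 ± 275.6, SD, n = 3), then St3gal6 (2.28, lung), St3gal2 (1.99, brain) and St3gal3 (1.24, liver). The median range of the 11 was 1.04. Of 9 genes that make, activate, carry or recycle sialic acid, 7 were measured and 6 called: Gne, the entry enzyme of sialic acid synthesis, peaked in liver (range 2.22), Renbp (1.83) and Npl, the sialic acid lyase (1.72), in kidney, and Cmas, which makes CMP-sialic acid, in spleen (1.54, also the median of the 7). Of 5 sialidase genes, counting the protective protein Ctsa, 4 were measured and 2 called, Neu1 (4.50, highest in kidney) and Ctsa (3.30, highest in lymph node), and both were called lower in testis (log2 differences of -2.10 and -2.56). The median range of the 4 was 1.96.

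Of 9 lectins that bind sialic acid, 6 were measured and 3 called: Cd22 was highest in spleen (range 1.38), Mag, a myelin protein, in brain (1.15) and Siglecf in liver (1.03), with a median range of 0.96. The Siglecf range was just over the size threshold, and its liver arrays were spread from 298 to 480, with a mean of 363 ± 102 (SD, n = 3). The Cd22 probe set, NM_009845_x_at, has the suffix of probes that can cross-hybridise. Its means were 5423 in spleen, 5295 in thymus and 4318 in brain, so spleen did not stand apart. Of 12 genes that build the N-glycan ends used by ST6GAL1, 9 were measured and 5 called, led by B4galt1, which adds the galactose that is sialylated (2.66, bone marrow), Mgat1 (2.40, bone marrow), Fut8 (1.99, kidney) and Man2a1 (1.85, spleen). The median range of the 9 was 1.54, and B4galt1 and Mgat1 were called higher in the lymphoid and blood-forming group, by 1.14 and 1.03. Of 17 genes for the mucin-type O-glycans used by the St6galnac enzymes, 9 were measured and 8 called, with a median range of 1.55. Galnt3 was highest in testis (3.56) and was called higher there, whereas Galnt1 (2.02, kidney) and Galnt2 (1.74, thymus) were called lower in testis, and Galnt7 (1.73) was highest in thymus. Asgr2, the measured 1 of 2 subunits of the liver receptor for glycoproteins that lack sialic acid, was highest in liver (3.97).

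All 27 arrays correlated best with another array of their own tissue, with array medians from 221.5 to 243.7, and testis replicate 1 had the lowest such correlation (r = 0.94). Neutrophil markers summed highest in bone marrow, T cell markers in thymus, neuron and glia markers in brain and lung epithelium markers in lung, with 6 of 6, 3 of 9, 7 of 7 and 2 of 4 measured. The human ST6GAL1 probe sets ranged by 0.35 each. Probes differ in how brightly they bind, so a level read against the human median, or a sum over marker probes, is a rough guide and not a comparison of transcript amounts between genes.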

How the data were processed

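Each array's deposited table holds 1 intensity per probe set on a linear scale, per the file headers. How the authors corrected background, summarised probes and scaled arrays is not given in the sources used here. Gene symbols came from the platform annotation, matched by gene identifier to RefSeq (GRCm38.p6), which left 702 mouse probe sets of 1813. Intensities under 16 were raised to 16 (0.269% of mouse values) and log2 taken. limma 3.58.1 in R 4.3.3 (lmFit, eBayes) was fitted on all 27 arrays with 1 coefficient per tissue, and p-values were Benjamini-Hochberg adjusted over all 702 probe sets within each contrast. Every probe set was kept, and none was averaged with another. The scripts were tested on simulated data.

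The members and gene lists were chosen with earlier results of these data known. The rule named all members, the 3 genes most like each called member, and up to 4 called genes of each list with the largest ranges. The test of disagreement between probe sets of a gene was chosen after the values were seen. Alternatives were quantile normalization, median centring, a filter on dim probe sets, a floor of 64, an offset of 16, 1 probe set or the mean per gene, trend and robust settings, array weights, a replicate block, the median reference, and leaving out each array.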

Additional observations from a re-analysis of the deposited data

How the results depend on the processing

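Counts of called members are given for the F test, the 9 single-tissue contrasts, the lymphoid contrast and the tissue pairs, which were 5, 10, 2 and 58. Leaving out 1 array at a time gave 5 to 6, 9 to 11, 2 in each case, and 54 to 65. Settings with fewer member probe sets gave lower counts by construction. The filter on the 234 dimmest probe sets removed X93999_at of St6galnac2, so its calls could not be repeated there. It left 9 members, with 4 single-tissue, 1 lymphoid and 37 pair calls. With only the brightest probe set per gene, 7 were left, with 2 F test and 35 pair calls. With the probe sets of each gene averaged, there were 2 F test, 6 single-tissue, 1 lymphoid and 28 pair calls. Quantile normalization gave 1 lymphoid call, and 7 F test calls, which held all 5 main ones plus AB028840_at of St6galnac5 and BB772604_at of St6galnac6. Array weights added AB028840_at.

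Deviations of arrays with the same title number had a median r of 0.02 over 108 pairs (from -0.37 to 0.58). With different numbers the median r was 0.01 over 216 pairs. Whether equal numbers mark the same mouse is not stated, and correlations this scattered cannot decide it. With the replicate block the counts were 5, 10, 2 and 58. Of 610 alternative values for 17 single probe set results, 0 reversed direction. Direction and, where a test was run, the call were kept by 602, and 2 fell under the size threshold in a test. With the median as the reference, which has no test, 6 values moved by at least the SD of the tissue's arrays, and smaller shifts are counted among the 602. The moved values of St6galnac2 in bone marrow, liver, brain and thymus were then under the size threshold. The count of disagreeing probe set pairs, 3, was 3 without any single array, 3 with the replicate block and 2 to 4 under the other settings. Signal limits St6galnac1 by NM_011371_at and St6galnac3, whose arrays were all under the human median.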
